A study of Homo sapiens with 6 samples.

Results

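Genes for RNA splicing regulators were examined in C4-2B parental and C4-2B enzalutamide resistant prostate cancer cells by RNA-Seq. The genes were chosen by symbol alone: the SR proteins (SRSF), heterogeneous nuclear ribonucleoproteins (hnRNPs), numbered RNA-binding motif (RBM) proteins, SF3A and SF3B subunits, U2AF subunits and the ESRP, RBFOX, PTBP, NOVA, CELF, MBNL and QKI regulators. This gave 132 of the 58024 genes in the table, of which 102 are protein-coding and 30 are pseudogenes in the GENCODE v44 annotation. C4-2B is a castration-resistant subline derived from LNCaP cells. There were 3 libraries of parental cells, propagated in the vehicle dimethyl sulfoxide (1% by the labels, while the study's methods give a lower percentage), and 3 libraries of resistant cells. The resistant cells were 1 pooled surviving population, selected in 1 to 20 µM enzalutamide over at least 6 months and then kept in 5 µM. Both groups grew in RPMI medium with fetal bovine serum. The protocol for RNA extraction names 10 µM enzalutamide and does not make plain whether the parental cells received it. Values are FPKM, that is, fragment numbers divided by transcript length and by the mapped total of the library, so that levels can be set against each other per unit of gene length. Nothing in the labels says that the 3 libraries of a group came from separate cultures, and the p values therefore measure the spread between libraries, which may be technical.

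Splicing removes introns from the primary transcript. The U2 snRNP, with its SF3A and SF3B complexes, binds the branch point, while the U2AF heterodimer reads the polypyrimidine tract and the AG of the 3′ splice site. SR proteins mostly bind exonic enhancers and promote inclusion of an exon, and hnRNPs often bind silencers and oppose it. Regulators such as ESRP1 and ESRP2 in epithelia, or NOVA1 and the neural CELF proteins in neurons, give a tissue its own set of exons. A gene-level FPKM value measures how much transcript of a regulator is present and not how any exon was spliced.

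The estimated depth ranged from 13335214 to 20653802 reads a library, and the FPKM values summed to between 792975 and 870110. All 12 luminal prostate markers were expressed in both groups, with 3 higher and 8 lower in resistant cells. KLK3, which encodes prostate-specific antigen, fell from 2556 ± 274 to 44.04 ± 2.58 FPKM (mean ± SD, n = 3 for both). The 7 fibroblast markers summed to 9.54 to 12.04 FPKM in parental and 10.9 to 17.9 FPKM in resistant libraries. Of these, 3 were higher and 1 lower in resistant cells. DCN was listed at 0 in all parental libraries and at 3.63, 3.78 and 4.35 FPKM in resistant libraries. LUM and ACTA2 had log2 fold changes of 2.75 and 0.99, and PDGFRB fell by 3.04. DCN and LUM reached the mean of 0.1 FPKM needed for testing only through their resistant libraries. Their direction was thus set in part by that filter. The part of these markers in the results on splicing regulators was not tested. The 6 immune markers summed to 0.0879 to 1.27 and 0.229 to 1.61 FPKM. Of the immune markers, CD3E was listed at 0 in all 6 libraries and PTPRC in 5 of them. In bulk RNA, fewer cells that express a gene and less RNA in each cell cannot be told apart.

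Of the 132 genes, 101 had a mean of at least 0.1 FPKM and were tested, 92 of them protein-coding and 9 pseudogenes. The other 31 genes, 10 coding and 21 pseudogenes, were below that level. In resistant cells 19 splicing regulators were higher and 26 were lower at an adjusted p under 0.05 (limma with Benjamini-Hochberg adjustment over all genes tested), which is 44.6% of those tested. A log2 fold change is the difference between the group means of log2(FPKM + 0.1). Across all 24468 genes tested the share was 44.4%, with 22.1% higher and 22.3% lower, so that splicing regulators passed the threshold about as often as any gene. Of the 92 coding members tested, 47.8% were called, against 55.7% of all coding genes tested. Groups did not overlap for 68 of the 101, 31 with resistant libraries above and 37 with resistant libraries below, against 54.8% of all genes. The split of calls depended on scaling: 32 were higher and 22 lower with median-ratio scaling, and 26 were higher and 23 lower when libraries were scaled to their sums without short non-coding RNAs. Without resistant replicate 1 the number of lower genes dropped to 17.

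A call with a change of at least 2-fold was made for 11 of the 101 genes, 7 higher and 4 lower, or 10.9%, against 28.5% of all genes tested (15% higher and 13.6% lower). Most splicing regulators are abundant, and 80 of them averaged at least 10 FPKM. In that range 39 of the 80 were called, 14 higher and 25 lower, which is 48.8%, while 56.7% of all 8936 such genes were called (25.2% higher and 31.6% lower). Groups did not overlap for 54 of the 80, against 66.3% of such genes. A change of 2-fold or more was seen in 5 of the 80, or 6.25%, against 21.1% of such genes (9.32% higher and 11.8% lower). The median size of the log2 fold change, in either direction, was 0.36 for the 80 genes and 0.50 for all genes in this range. These shares are descriptions, without a test of the set. Among the 21 tested members under 10 FPKM, 6 were called, or 28.6%, each of them with a 2-fold change, against 37.3% of all genes in this range called and 32.8% called with a 2-fold change. RBM11, SRSF12, CELF5 and CELF6 passed the filter on low values only through their resistant libraries. RBM24, whose mean was above 10 FPKM, passed it only through its parental libraries, with a resistant mean of 0.0999 FPKM. The direction of each of these genes was thus set in part by the filter.

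**Figure D1:**
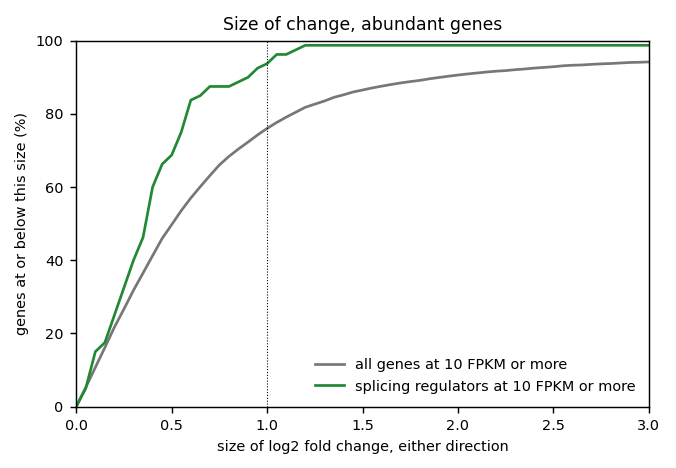
The horizontal axis gives the size of the log2 fold change between resistant and parental cells in either direction and the vertical axis the percentage of genes at or below it, for 80 splicing regulators (green) and all 8936 genes (grey) with a mean of at least 10 FPKM. At a log2 size of 1, marked by the dotted line, the curves stand at 93.8% and 76.0%.

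**Figure D2:**
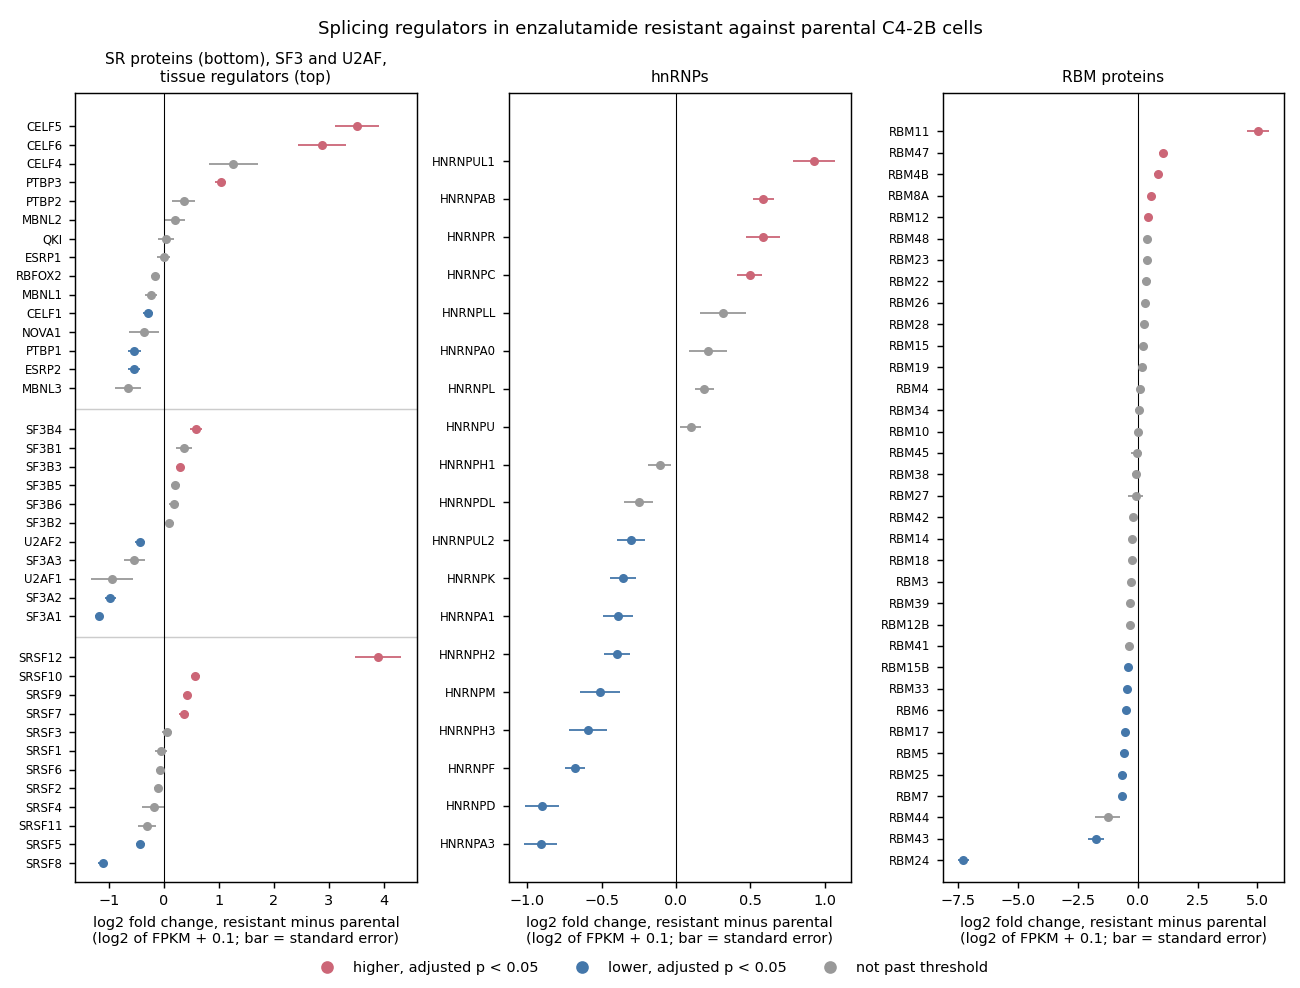
Each point is a protein-coding splicing regulator that was tested, placed by its log2 fold change in resistant against parental cells (log2 of FPKM + 0.1) with its standard error as a bar, in 3 panels that have different horizontal scales. Most points lie between -1 and 1, and RBM24, RBM11, SRSF12, CELF5 and CELF6 stand far outside.

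The largest differences were in a handful of tissue-restricted regulators that were nearly absent from one of the cell populations. RBM24, an RNA-binding protein known from heart and skeletal muscle splicing, was listed at 28.0, 36.0 and 29.6 FPKM in parental libraries and at 0.0734, 0.132 and 0.0939 FPKM in resistant libraries. At the estimated depths the resistant values correspond to about 3.13, 5.40 and 3.41 reads, against 982 to 1770 reads in a parental library. RBM24 fell by 7.29 on the log2 scale (SE 0.22, adjusted p = 6.11e-06), and leaving out any library gave values between -7.41 and -7.19. Among the 101 members tested, no other differed by as much.

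RBM11, a splicing regulator known from brain and testis, went the other way. Its values were 0, 0 and 0.153 FPKM in parental libraries and 4.97, 3.70 and 4.39 FPKM in resistant libraries, an increase of 5.02 on the log2 scale (SE 0.46, adjusted p = 3.15e-04). SRSF12 is an SR-related protein that opposes other SR proteins. It was listed at 0.0863, 0 and 0 FPKM in parental and at 1.58, 1.51 and 2.16 FPKM in resistant libraries, so that the groups were far apart. The increase was 3.90 on the log2 scale (SE 0.42, adjusted p = 6.06e-04). Its mean was below 1 FPKM and it was singled out after its values had been seen. With the pseudocount of 0.1 all fold changes of genes near 0 are understated, and values under 0.1 FPKM rest on a few reads. With pseudocounts of 1 and 0.01 the log2 fold change was -4.87 and -8.18 for RBM24 and 2.35 and 7.42 for RBM11.

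CELF5 and CELF6 belong to the CELF proteins, which bind GU-rich RNA and are known for neural expression. CELF5 was at 0.138, 0.121 and 0.0263 FPKM in parental and at 2.51, 1.68 and 2.01 FPKM in resistant libraries, an increase of 3.51 (SE 0.40, adjusted p = 7.23e-04). CELF6 was at 0.0213, 0.0188 and 0.120 FPKM in parental and at 1.09, 0.783 and 1.096 FPKM in resistant libraries. For CELF6 the increase was 2.88 (SE 0.43, adjusted p = 0.00227), and 82.1% of the 50-base stretches in its transcripts are shared with the overlapping read-through gene ENSG00000260729, so that its reads may have been split. With pseudocounts of 1 and 0.01 the log2 fold change was 1.48 and 4.53 for CELF5 and 0.91 and 4.33 for CELF6. CELF4, of the same family, averaged 0.592 ± 0.140 FPKM in parental and 1.70 ± 1.02 FPKM in resistant cells. Its resistant values of 1.01, 1.23 and 2.87 FPKM were all above the parental ones of 0.746, 0.473 and 0.557, but the difference of 1.26 did not pass the threshold (adjusted p = 0.0611). It passed with median-ratio scaling (1.35, adjusted p = 0.0442), and without resistant replicate 2 the difference was 0.83.

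**Figure D3:**
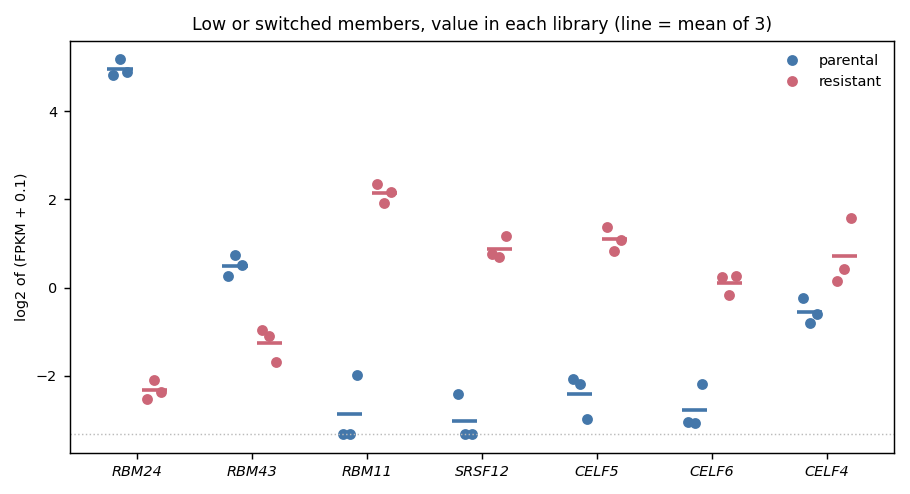
Log2 of FPKM + 0.1 is shown for each library (points) with the mean of 3 libraries (line) for 7 regulators of low level or near absence in one group, parental in blue and resistant in red. The dotted line marks a value of 0 FPKM, and for every gene shown the groups do not overlap, with RBM24 and RBM43 lower and the other 5 higher in resistant cells.

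The promoters of the 5 genes with the largest differences are shown because each of them went from near absence to a clear level, or the reverse, between the cell populations. Each window holds the 250 bases before the transcription start, 5′ to 3′ on the strand of the gene, from RefSeq (GRCh38.p14). RBM24 lies on the plus strand (chr6:17281814-17282063), RBM11 on the plus strand (chr21:14215907-14216156), SRSF12 on the minus strand (chr6:89118072-89118321), CELF5 on the plus strand (chr19:3224411-3224660) and CELF6 on the minus strand (chr15:72320158-72320407). For RBM24 the RefSeq start is downstream of the GENCODE v44 start, and this window is intronic in the longer model. Capitals mark exact matches on either strand to the letters of the GC box (GGGCGG), the CCAAT box, the TATA box (TATAAA) or the cyclic AMP response element (TGACGTCA).
RBM24: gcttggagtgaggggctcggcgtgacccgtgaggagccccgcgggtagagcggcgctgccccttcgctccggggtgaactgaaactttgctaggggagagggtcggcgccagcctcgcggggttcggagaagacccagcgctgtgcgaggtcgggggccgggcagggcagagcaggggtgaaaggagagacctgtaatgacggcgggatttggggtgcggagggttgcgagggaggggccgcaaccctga
RBM11: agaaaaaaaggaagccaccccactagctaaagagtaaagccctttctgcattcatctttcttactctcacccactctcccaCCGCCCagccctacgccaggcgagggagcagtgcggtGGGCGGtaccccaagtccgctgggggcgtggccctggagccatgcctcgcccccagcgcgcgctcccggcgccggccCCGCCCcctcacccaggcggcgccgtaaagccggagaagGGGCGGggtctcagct
SRSF12: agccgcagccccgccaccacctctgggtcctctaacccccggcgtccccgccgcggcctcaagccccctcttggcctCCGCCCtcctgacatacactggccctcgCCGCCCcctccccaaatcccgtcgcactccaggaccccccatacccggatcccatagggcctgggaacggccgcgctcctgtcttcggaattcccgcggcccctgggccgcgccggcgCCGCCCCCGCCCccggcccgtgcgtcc
CELF5: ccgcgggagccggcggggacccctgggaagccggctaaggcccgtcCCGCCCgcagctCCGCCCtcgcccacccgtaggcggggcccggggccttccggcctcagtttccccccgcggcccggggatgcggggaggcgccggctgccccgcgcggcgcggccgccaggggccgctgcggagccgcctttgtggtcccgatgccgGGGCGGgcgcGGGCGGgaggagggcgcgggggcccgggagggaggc
CELF6: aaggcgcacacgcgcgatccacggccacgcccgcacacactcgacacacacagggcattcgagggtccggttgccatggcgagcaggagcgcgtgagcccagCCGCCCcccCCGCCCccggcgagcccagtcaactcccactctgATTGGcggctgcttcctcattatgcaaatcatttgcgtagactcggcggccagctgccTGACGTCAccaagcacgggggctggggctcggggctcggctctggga

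RBM24 held none of these letters, RBM11, SRSF12 and CELF5 held 4 GC boxes each, and CELF6 held 2 GC boxes, 1 CCAAT box and 1 cyclic AMP response element. Of 27305 promoters of the same length, 42.2% held a GC box, 33.0% a CCAAT box, 11.2% a TATA box and 1.75% a cyclic AMP response element. All 5 windows were rich in G and C, from 67.2% in RBM11 to 84.0% in CELF5, against a median of 57.6% over all promoters and 64.4% over the 90 coding members with an entry. RBM24 had 23 CpG sites, RBM11 20, SRSF12 28, CELF5 38 and CELF6 25, while the median was 10 over all promoters and 23 over the members. A match of letters is a description of the window and not a site that was seen to be bound.

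Subunits of the SF3A and SF3B complexes, which are both parts of the U2 snRNP at the branch point, differed in direction. Of 3 SF3A subunits 2 were lower, and of the 6 SF3B subunits under the symbol rule 2 were higher. PHF5A, an SF3B subunit outside that rule, averaged 45.0 FPKM in parental and 42.6 FPKM in resistant cells, with overlapping groups. SF3A1, the scaffold of SF3A, was at 157, 168 and 174 FPKM in parental libraries and at 68.2, 75.4 and 75.8 FPKM in resistant libraries (log2 fold change -1.19, SE 0.08, adjusted p = 7.32e-05). SF3A2 was at 86.7, 80.6 and 101 FPKM in parental and at 43.9, 46.4 and 45.0 FPKM in resistant libraries (log2 fold change -0.98, SE 0.10, adjusted p = 4.23e-04). For both, every resistant library was far below every parental library. SF3A3 was at 167, 121 and 185 FPKM in parental and at 90.2, 106 and 126 FPKM in resistant libraries, and these ranges overlapped slightly. Its log2 difference of -0.54 did not pass the threshold (adjusted p = 0.0613).

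The 2 SF3B subunits that rose were SF3B4 and SF3B3. SF3B4, which contacts the pre-mRNA next to the branch point, was at 31.8, 32.2 and 29.4 FPKM in parental and at 41.0, 48.1 and 51.0 FPKM in resistant libraries (log2 fold change 0.58, SE 0.10, adjusted p = 0.00491). SF3B3, a structural subunit, was at 282, 249 and 284 FPKM in parental and at 325, 344 and 321 FPKM in resistant libraries (0.28, SE 0.07, adjusted p = 0.0215). Without any 1 of the resistant libraries the adjusted p of SF3B3 was between 0.0551 and 0.0731. SF3B1, the subunit that clasps the branch point adenosine and is often mutated in cancer, was at 222, 150.3 and 181 FPKM in parental and at 241, 237 and 224 FPKM in resistant libraries. Its resistant values were all above the parental ones, yet the log2 difference of 0.36 (95% interval 0.02 to 0.70) did not pass (adjusted p = 0.0828). The difference passed without parental replicate 0 (0.50, adjusted p = 0.0199) and with each of the other 3 scalings (0.42 to 0.47, adjusted p 0.0265 to 0.0408). SF3B2 differed by 0.10 (adjusted p = 0.402), with overlapping groups, and passed with quantile scaling (0.24, adjusted p = 0.0383). SF3B5 and SF3B6 had log2 differences of 0.21 and 0.18 without passing the threshold. In the main fit 45.5% of the 11 SF3 and U2AF genes were called, against 55.7% of all coding genes tested. With quantile, median-ratio and sum scaling these genes split into 6 higher and 4 lower, 5 and 3, and 5 and 3, in place of 2 and 3. The 4 lower with quantile scaling include U2AF1 (-1.17, adjusted p = 0.0419), whose values cannot be read as its level.

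U2AF2, the large subunit of U2AF, was at 193, 172 and 209 FPKM in parental and at 138, 148 and 135 FPKM in resistant libraries. Its groups did not overlap, and it fell by 0.45 (SE 0.09, adjusted p = 0.00791). U2AF1, the small subunit, was listed at 0.725, 0.661 and 1.46 FPKM in parental and at 0.440, 0.410 and 0.392 FPKM in resistant libraries. These values cannot be read as the level of U2AF1, since GRCh38 carries an artifactual copy of the gene on chromosome 21, named U2AF1L5. Of the 50-base stretches of U2AF1 (43092956 to 43107570), 93.7% also occur in that copy (6484623 to 6499248), and a read that maps to both places may have been dropped or divided. U2AF1L5 was itself listed at 0 in the parental libraries and at 0.445, 0.249 and 0.402 FPKM in the resistant libraries.

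**Figure D4:**
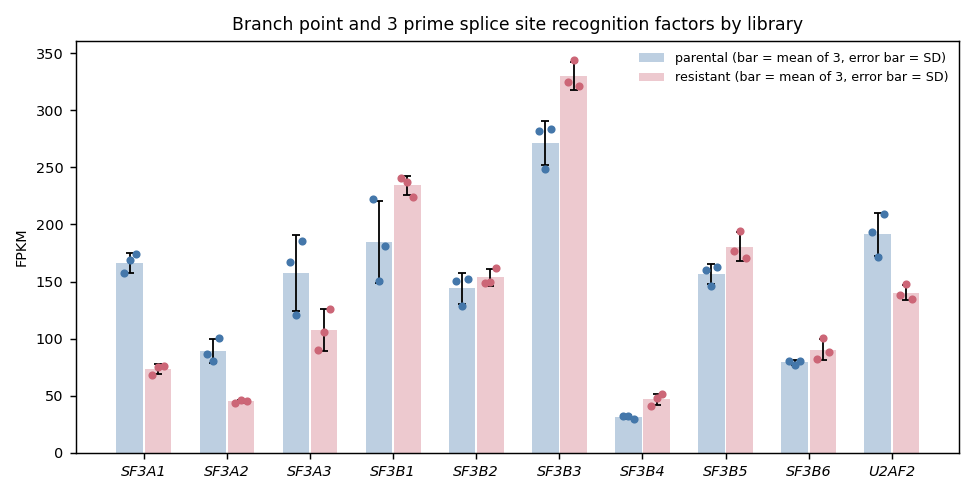
FPKM of SF3A1 to SF3A3, SF3B1 to SF3B6 and U2AF2 in each library (points), parental in blue and resistant in red. Bars give the mean of 3 libraries and error bars the SD. SF3A1 and SF3A2 stand at 167 and 89.4 FPKM in parental and at 73.1 and 45.1 FPKM in resistant cells. The means of SF3B1 to SF3B6 are each higher in resistant cells.

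The 12 SR proteins were all expressed above the filter, and 4 were higher and 2 lower in resistant cells. That is 50% called, against 55.7% of all coding genes tested. Their summed level was 1473 ± 99.3 FPKM in parental and 1490.4 ± 64.0 FPKM in resistant cells. SRSF8, a close relative of SRSF2, was at 24.2, 23.4 and 23.3 FPKM in parental and at 10.9, 11.03 and 10.5 FPKM in resistant libraries. The spread within each group was very small, and SRSF8 fell by 1.12 (SE 0.08, adjusted p = 1.46e-04). SRSF5 was at 180.0, 168 and 196 FPKM in parental and at 136, 128 and 139 FPKM in resistant libraries (log2 fold change -0.43, SE 0.08, adjusted p = 0.00518).

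Besides SRSF12, the SR proteins that rose were SRSF10, SRSF9 and SRSF7, and none of them reached 2-fold. SRSF10, which represses splicing when it loses its phosphates, was at 62.2, 58.2 and 67.9 FPKM in parental and at 89.6, 90.4 and 99.1 FPKM in resistant libraries (0.57, SE 0.08, adjusted p = 0.00226). SRSF9 was at 193, 187 and 165 FPKM in parental and at 238, 242 and 243 FPKM in resistant libraries (0.41, SE 0.08, adjusted p = 0.00534). On the opposite strand GATC overlaps 43.6% of the exonic bases of SRSF9, and whether reads were counted by strand is not stated. SRSF7 was at 109.9, 126 and 126 FPKM in parental and at 148, 170.2 and 146 FPKM in resistant libraries (0.36, SE 0.09, adjusted p = 0.0201). The adjusted p of SRSF7 lay between 0.0508 and 0.0605 without parental replicate 0, resistant replicate 0 or resistant replicate 1. SRSF1, the founding member of the family, and SRSF3 were among the most abundant. SRSF1 averaged 218 ± 20.4 FPKM in parental and 211 ± 23.3 FPKM in resistant cells, with a log2 difference of -0.05 (95% interval -0.31 to 0.21). The gene ENSG00000266086 overlaps 32.7% of the exonic bases of SRSF1 on the same strand, so that its reads may be divided. For SRSF3 the means were 254 ± 28.2 and 264 ± 10.2 FPKM, with a difference of 0.06 (95% interval -0.17 to 0.28). The groups of SRSF2, SRSF4, SRSF6 and SRSF11, like those of SRSF1 and SRSF3, overlapped.

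Among the 19 protein-coding hnRNP genes tested, 4 were higher and 9 lower in resistant cells. That is 68.4% called, against 55.7% of all coding genes tested. None changed 2-fold, while 30.85% of all coding genes tested were called with a 2-fold change. With median-ratio scaling the split was 7 and 7, and with sum scaling without short non-coding RNAs it was 5 and 7. The largest decreases were in HNRNPA3 and HNRNPD. HNRNPA3 was at 12.6, 14.3 and 14.1 FPKM in parental and at 7.25, 7.52 and 6.91 FPKM in resistant libraries (log2 fold change -0.91, SE 0.11, adjusted p = 9.42e-04). On the opposite strand NFE2L2 overlaps 53.7% of the exonic bases of HNRNPA3, so that its reads may be divided. HNRNPD, also known as AUF1, marks AU-rich transcripts for decay. It was at 177, 165 and 209 FPKM in parental and at 89.5, 97.0 and 108 FPKM in resistant libraries (-0.90, SE 0.11, adjusted p = 0.00117). HNRNPF and HNRNPH3 bind runs of G. HNRNPF was at 270.1, 259 and 284 FPKM in parental and at 159, 176 and 172 FPKM in resistant libraries (-0.68, SE 0.07, adjusted p = 4.54e-04). HNRNPH3 was at 55.1, 45.7 and 63.9 FPKM in parental and at 37.7, 35.7 and 34.9 FPKM in resistant libraries (-0.59, SE 0.13, adjusted p = 0.0109).

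HNRNPM and HNRNPA1 also fell, with calls that were lost when any of several libraries was left out. HNRNPM was at 249.97, 196 and 268 FPKM in parental and at 149.5, 176 and 172 FPKM in resistant libraries (-0.51, adjusted p = 0.0218), and without any 1 library other than parental replicate 1 its adjusted p was between 0.0574 and 0.0955. HNRNPA1, a silencer-binding protein that opposes SRSF1, was at 83.3, 104 and 95.4 FPKM in parental and at 76.5, 68.4 and 70.3 FPKM in resistant libraries (-0.39, adjusted p = 0.0208). HNRNPA1 lost its call with each of the 3 other scalings, and without parental replicate 1 or 2 or resistant replicate 1 or 2 its adjusted p was between 0.0501 and 0.0738. It has many processed pseudogenes, and 12.3% of its 50-base stretches occur in other genes. HNRNPH2, HNRNPK and HNRNPUL2 made up the other 3 that fell, with log2 fold changes from -0.39 to -0.30. The adjusted p of HNRNPK reached 0.0758 (without parental replicate 0 or 2 or resistant replicate 0 it missed the threshold), and that of HNRNPUL2 reached 0.0829 (missed without parental or resistant replicate 1 or 2). HNRNPUL2 also lost its call with each of the other scalings.

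Of the hnRNP genes that rose, HNRNPUL1 had the largest change. It was at 86.2, 63.5 and 86.5 FPKM in parental and at 139, 143 and 165 FPKM in resistant libraries (0.93, SE 0.14, adjusted p = 0.00252). HNRNPAB was at 89.3, 80.6 and 81.1 FPKM in parental and at 126, 129 and 121 FPKM in resistant libraries (0.59, SE 0.07, adjusted p = 8.70e-04). HNRNPR was at 95.9, 77.0 and 95.1 FPKM in parental and at 121, 144 and 135 FPKM in resistant libraries (0.58, SE 0.11, adjusted p = 0.0069). HNRNPC, which binds runs of U and competes with U2AF2 for them, was at 292, 265 and 308 FPKM in parental and at 390.3, 439 and 389 FPKM in resistant libraries (0.50, SE 0.08, adjusted p = 0.00392). HNRNPL, a binder of CA repeats, averaged 359.6 ± 19.5 FPKM in parental and 411 ± 11.3 FPKM in resistant cells. Its groups did not overlap, and the difference of 0.19 just missed the threshold (adjusted p = 0.0514) but passed it with each of the other scalings. HNRNPH1 was the most abundant hnRNP, at 836 ± 54.2 FPKM in parental and 774 ± 44.6 FPKM in resistant cells, with overlapping groups. The 6 coding hnRNP genes that did not pass had log2 differences from -0.25 in HNRNPDL to 0.31 in HNRNPLL. The summed level of hnRNP genes was 3491 ± 219 FPKM in parental and 3347 ± 146 FPKM in resistant cells.

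RBM proteins share an RNA recognition motif and otherwise serve varied functions. Of the 35 coding RBM genes tested, 5 were higher and 9 lower in resistant cells. That is 40% called, against 55.7% of all coding genes tested. With median-ratio scaling the split was 11 and 8, and with sum scaling it was 8 and 9. Besides RBM11, the increases were in RBM47, RBM4B, RBM8A and RBM12. RBM47, an epithelial regulator that also serves as a cofactor of RNA editing, was at 30.2, 33.3 and 30.8 FPKM in parental and at 62.1, 80.2 and 53.7 FPKM in resistant libraries (1.03, SE 0.15, adjusted p = 0.0021). RBM4B was at 9.84, 12.1 and 8.82 FPKM in parental and at 15.3, 20.1 and 19.6 FPKM in resistant libraries (0.84, SE 0.17, adjusted p = 0.00776). Its neighbour and close copy RBM4 averaged 56.5 ± 7.91 and 59.6 ± 5.26 FPKM, and 17.3% of the 50-base stretches of RBM4B occur in RBM4. RBM8A, a core protein of the exon junction complex, was at 60.7, 52.4 and 66.8 FPKM in parental and at 80.4, 94.1 and 88.3 FPKM in resistant libraries (0.55, SE 0.11, adjusted p = 0.00819). On the opposite strand other genes overlap 23.3% of its exonic bases. RBM12 rose by 0.43 (adjusted p = 0.0414), and without any 1 library other than parental replicate 1 its adjusted p was between 0.0616 and 0.113.

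The RBM genes that fell, apart from RBM24, did so by less than 2-fold except for RBM43. RBM43, singled out after its values had been seen, was at 1.09, 1.56 and 1.32 FPKM in parental and at 0.416, 0.368 and 0.210 FPKM in resistant libraries (-1.74, SE 0.35, adjusted p = 0.00783). RBM7, which belongs to a nuclear complex that brings RNA to the exosome, was at 13.7, 15.7 and 13.6 FPKM in parental and at 8.32, 9.77 and 9.13 FPKM in resistant libraries (-0.65, SE 0.12, adjusted p = 0.0050). RBM17, a spliceosomal protein of 3′ splice site choice, was at 64.5, 68.3 and 63.9 FPKM in parental and at 46.3, 44.3 and 43.6 FPKM in resistant libraries (-0.55, SE 0.07, adjusted p = 0.00102). RBM25 and RBM5 both regulate the splicing of genes for cell death. RBM25 was at 61.8, 49.3 and 77.9 FPKM in parental and at 35.5, 39.6 and 43.97 FPKM in resistant libraries (-0.65, adjusted p = 0.0257). RBM5 was at 97.8, 102 and 137 FPKM in parental and at 64.1, 80.8 and 77.4 FPKM in resistant libraries (-0.59, adjusted p = 0.0220). The adjusted p of RBM25 was between 0.0582 and 0.111 without any 1 library other than parental replicate 1, and that of RBM5 was between 0.0501 and 0.0905 without parental replicate 1 or any 1 resistant library. RBM6, RBM33 and RBM15B also fell, with log2 fold changes from -0.48 to -0.40. RBM6 missed the threshold without any 1 library other than parental replicate 0 (adjusted p up to 0.143) and with each of the other scalings, and RBM33 without parental replicate 2 or resistant replicate 0 or 1 (up to 0.0674). RBM3, a cold-induced protein, and RBM39, a partner of U2AF2, did not pass the threshold, with log2 differences of -0.28 (adjusted p = 0.0561) and -0.31 (adjusted p = 0.142). RBM3 passed with quantile and sum scaling (-0.24 and -0.22, adjusted p = 0.0301 and 0.0381). In all, 21 coding RBM genes did not pass, with log2 differences from -1.26 in RBM44 to 0.40 in RBM48.

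Of the 19 ESRP, RBFOX, PTBP, NOVA, CELF, MBNL and QKI genes, 15 were tested, and 3 were higher and 3 lower in resistant cells. That is 40% called, against 55.7% of all coding genes tested. Besides CELF5 and CELF6, the gene that rose was PTBP3, a paralogue of the polypyrimidine tract binding protein PTBP1. PTBP3 was at 36.2, 28.6 and 29.6 FPKM in parental and at 62.7, 66.3 and 63.1 FPKM in resistant libraries (1.03, SE 0.11, adjusted p = 4.89e-04). PTBP1, a repressor of neuronal exons, was at 374, 502 and 405 FPKM in parental and at 269.7, 294 and 311 FPKM in resistant libraries (-0.54, SE 0.12, adjusted p = 0.0121). Without resistant replicate 0 or 1 its adjusted p was between 0.0507 and 0.0644. PTBP2, the neuronal paralogue, was at 12.1, 20.4 and 19.03 FPKM in parental and at 20.6, 19.7 and 24.4 FPKM in resistant libraries, with overlapping groups and a difference of 0.36 (adjusted p = 0.228).

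The epithelial regulators ESRP1 and ESRP2 did not move together. ESRP2 was at 51.8, 55.6 and 54.3 FPKM in parental and at 39.8, 39.6 and 31.8 FPKM in resistant libraries and fell by 0.55 (SE 0.11, adjusted p = 0.00724). ESRP1 was at 42.7, 40.9 and 54.4 FPKM in parental and at 43.2, 44.6 and 48.4 FPKM in resistant libraries, with a log2 difference of -0.01 (95% interval -0.31 to 0.29) whose sign turned with each of the other scalings. CELF1, the broadly expressed CELF protein, averaged 115 ± 11.1 FPKM in parental and 93.7 ± 5.11 FPKM in resistant cells and fell by 0.29 (adjusted p = 0.0394). CELF1 lost its call with each of the other scalings, and without any 1 library other than parental replicate 0 its adjusted p was between 0.0539 and 0.119.

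No call was made for the MBNL genes, which govern developmental exon choice, or for QKI, RBFOX2 and NOVA1. MBNL1 averaged 67.5 ± 5.30 and 57.3 ± 6.95 FPKM in parental and resistant cells, and MBNL2 4.44 ± 0.838 and 5.05 ± 0.234 FPKM. MBNL3 was at 7.77, 7.11 and 7.20 FPKM in parental and at 4.05, 3.71 and 6.55 FPKM in resistant libraries, with the third resistant value close to the parental ones. The log2 difference of MBNL3 was -0.66 (adjusted p = 0.0607), and without resistant replicate 2 it was -0.91 with an adjusted p of 0.00788. It also passed with quantile scaling (-0.69, adjusted p = 0.0444). QKI averaged 28.0 ± 4.45 and 28.6 ± 3.38 FPKM (difference 0.04), RBFOX2 31.5 ± 0.541 and 28.2 ± 1.64 FPKM (-0.16), and NOVA1, a neuronal regulator, 11.6 ± 2.65 and 9.07 ± 2.89 FPKM (-0.37). CELF2, NOVA2, RBFOX1 and RBFOX3 were below the filter, with no library over 0.200 FPKM. The summed level of the 19 genes was 842 ± 63.8 FPKM in parental and 691 ± 28.6 FPKM in resistant cells, of which PTBP1 made up the largest part.

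Because FPKM is per unit of length, the balance between partners or paralogues can be read within a library, where the scaling of that library cancels. These pairs were chosen after the values had been seen, and the ratios are given without a test. The mean of SF3A1 to SF3A3 was set over the mean of SF3B1 to SF3B6, without PHF5A. This ratio was 0.886, 0.944 and 1.03 in parental and 0.399, 0.424 and 0.486 in resistant libraries. PTBP3 over PTBP1 was 0.0756 ± 0.0199 in parental and 0.220 ± 0.0155 in resistant cells, and PTBP2 over PTBP1 was 0.0400 ± 0.00734 and 0.0739 ± 0.00599. ESRP1 over ESRP2 was 0.824, 0.736 and 1.003 in parental and 1.09, 1.13 and 1.52 in resistant libraries. ESRP1 thus exceeded ESRP2 in every resistant library and, by very little, in parental replicate 2. HNRNPUL1 over HNRNPUL2 went from 3.13 ± 0.555 to 7.31 ± 0.748, although HNRNPUL2 shares 43.4% of its 50-base stretches with a read-through gene. HNRNPC over HNRNPD went from 1.58 ± 0.0916 to 4.16 ± 0.486, and SRSF10 over SRSF5 from 0.346 ± 0.000441 to 0.693 ± 0.0291. For each of these 7 ratios the parental and resistant libraries did not overlap.

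**Figure D5:**
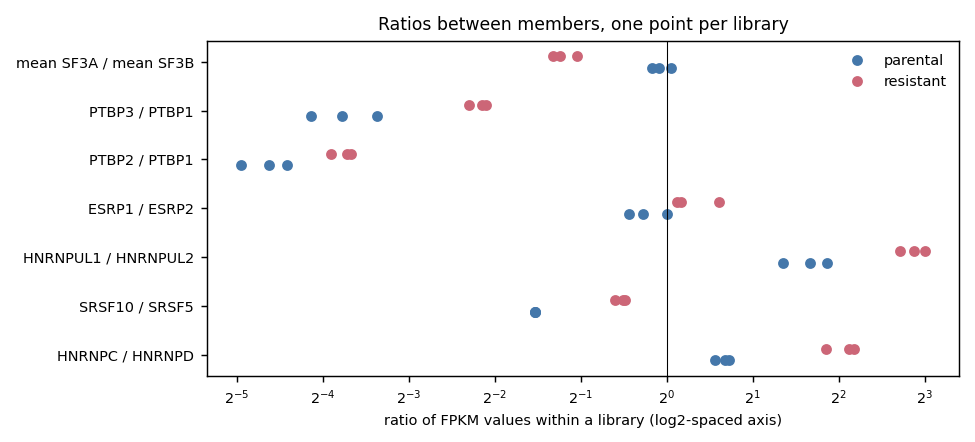
Each point is the ratio of FPKM values of the named genes within 1 library, on a log2-spaced axis, parental in blue and resistant in red. The vertical line marks a ratio of 1. The ESRP1 to ESRP2 ratio exceeds it in all 3 resistant libraries, at 1.09 to 1.52, and just exceeds it in parental replicate 2, at 1.003.

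The members that were not tested were at or near the limit of detection. Among the coding genes, RBM20 and RBM46 and the 4 genes HNRNPCL1 to HNRNPCL4 were below the filter in the same way as CELF2, NOVA2, RBFOX1 and RBFOX3. RBM20, a regulator of titin splicing in heart, was listed at 0.0067, 0.0359 and 0 FPKM in parental and at 0.0494, 0.162 and 0.340 FPKM in resistant libraries. All 30 pseudogenes other than RBM8B carry the name of an hnRNP gene. HNRNPLP2 was the 1 pseudogene that passed the threshold, at 0.239 FPKM in parental and 0.728 FPKM in resistant cells on average (1.26, adjusted p = 0.0297). Without parental replicate 0 or resistant replicate 2 its adjusted p was between 0.0527 and 0.0628, and it lost its call with quantile scaling. Reads of 50 bases cannot always separate such copies from HNRNPL.

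Other genes of the splicing machinery were read from a list of 133 genes outside the symbol rule, of which 132 were tested. In resistant cells 37 were higher and 31 lower, which is 51.5% against 55.7% of all coding genes tested. The median log2 fold change was 0.017, against 0.007 over all coding genes tested. Of the 26 snRNP core genes, 11 were higher and 6 lower (65.4% called). Of the 43 genes of the tri-snRNP, PRP19 complex and related helicases, 10 were higher and 10 lower (46.5% called). SNRPE, a protein of the Sm ring, and LSM3, of the LSM ring, rose by 1.23 and 1.097 on the log2 scale, while SNRPN and SNRPC, a protein of the U1 snRNP, had log2 fold changes of -0.99 and -0.74. SYF2 and the helicase DDX23 rose by 1.502 and 1.06, and PRPF19 had a log2 fold change of -0.90. Of the 12 genes of the exon junction and nonsense-mediated decay, 4 were higher and 2 lower (50% called). Log2 fold changes were 0.51 in SMG6, 0.44 in MAGOHB, -0.69 in UPF3A and -0.47 in UPF1.

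Among the 20 kinases of SR proteins and splicing coactivators, 6 were higher and 6 lower. That is 60% called, against 55.7% of all coding genes tested. SRRM4, the activator of neural microexons, was at 0.0610, 0.155 and 0.258 FPKM in parental and at 40.2, 37.8 and 43.1 FPKM in resistant libraries, a rise of 7.37 on the log2 scale (SE 0.31, adjusted p = 2.01e-05). SRPK3, a muscle kinase of SR proteins, rose by 3.41 (adjusted p = 0.0020), while CLK3, another kinase of SR proteins, and SAP18 had log2 fold changes of -1.42 and -1.27. Of 31 other RNA-binding proteins tested, 6 were higher and 7 lower (41.9% called). CELF3, a neural relative of CELF5 and CELF6, was at 0.103, 0.163 and 0.116 FPKM in parental and at 19.5, 17.5 and 23.0 FPKM in resistant libraries (6.46, SE 0.23, adjusted p = 1.05e-05). KHDRBS2, a neural STAR protein, was listed at 0 in all 3 parental libraries and at 9.27, 10.8 and 12.3 FPKM in resistant libraries. KHDRBS2 passed the filter on low values only through its resistant libraries, so that its direction was set in part by the filter. TAF15 and YBX1 had log2 fold changes of -0.97 and -0.76.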

How the data were processed

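RNA-Seq of 3 parental and 3 enzalutamide resistant C4-2B libraries was analysed. The authors trimmed 50 bp single-end reads with TrimGalore 0.4.3, aligned them to GRCh38 with STAR 2.5.3 and estimated expression with Cufflinks 2.2.1 and GENCODE v25. The deposited table was taken as FPKM from these methods and from the form of its values, since it names no unit. The submitters' processing notes name mm10, Trimmomatic 0.27 and FastQC 0.10.1 instead, while the gene identifiers are human. The kit is named as stranded, but whether counting used strand is not given in the sources used here.

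The table gives no read counts. Depth was estimated from the value of 1 read on single-transcript genes between 600 and 8000 bases in length, assuming fragments of 200 bases, and a value of 0 was read as listed at 0. The groups were tested in limma 3.58.1 (R 4.3.3, mean-variance trend) on log2(FPKM + 0.1), two-sided, for the 24468 genes averaging 0.1 FPKM or more, with Benjamini-Hochberg adjustment and a threshold of 0.05. An exact permutation test of 3 against 3 libraries cannot give a p below 0.1 and was not used. On simulated data for this comparison, with 24468 genes of which 200 were changed, the fit called 23 of 113 genes changed by 1 log2 unit, 48 of 87 changed by 2 log2 units and 1 unchanged gene. The adjustment depends on how many genes change, and in the real data 44.4% of genes were called. These simulated rates therefore do not carry over to the real data.

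Gene types, positions, overlaps and shared 50-base stretches came from GENCODE v44, in which all 132 member identifiers were found. Promoters came from RefSeq. Tables were handled with Python 3.11.15, pandas 2.3.3 and numpy 2.4.6, and figures with matplotlib 3.10.9. The members, lists and tests were chosen with earlier results of these data known. Genes named were, in each class, up to 5 with the largest increase and 5 with the largest decrease. These were taken among genes called at a mean of at least 1 FPKM without overlap. All 19 ESRP, RBFOX, PTBP, NOVA, CELF, MBNL and QKI genes and a set of well-known factors were named as well. In each other list, up to 2 genes in each direction were named, and some genes covered by these rules are not reported here. Other members are given by counts and ranges, or stated to have been picked from their values. Alternatives covered the pseudocount, the filter, the scaling, the variance trend, the threshold, a block for the replicate number and each library left out. The numbers did not pair the samples, with correlations of deviations of 0.00176, 0.0180 and -0.00138 between same-numbered libraries over 16382 genes.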

Additional observations from a re-analysis of the deposited data

How the results depend on the processing

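Of the 45 genes called, 31 (15 higher and 16 lower) remained called in every fit that left out a library and with every other scaling, and 40 remained with every scaling. With median-ratio scaling 32 members were higher. At an adjusted p below 0.01 the calls were 29, with 14 lower, and 19 other splicing genes were lower. Without the variance trend 17 members were lower. With a filter at a mean of 1 FPKM, under which 90 members were tested, 7 members were called with a 2-fold change, since RBM43, SRSF12, CELF6 and HNRNPLP2 fell below that filter. When each library was left out in turn, members called ranged from 33 to 44 (16 to 20 higher, 17 to 25 lower), those with a 2-fold change from 10 to 12, and other splicing genes from 30 to 36 higher and from 22 to 32 lower. The required absence of overlap, an alternative chosen after seeing the data, left 19 higher and 26 lower. The all-gene median of the log2 fold change was between -0.07 and 0.04 over the scalings.

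Among named members, signs turned for ESRP1, SRSF1, SRSF3 and QKI, whose differences were near 0. ESRP1 was at 0.092 with quantile, 0.095 with median-ratio and 0.048 with sum scaling, and between -0.088 and 0.117 without 1 library. SRSF1 was at 0.047, 0.054 and 0.0070 with these scalings and between -0.135 and 0.022 without 1 library. SRSF3 was between -0.029 and 0.132 and QKI between -0.083 and 0.149 without 1 library. The replicate block, in a design where the numbers were not shown to pair the samples, gave 39 calls, 17 higher and 22 lower, and the 6 members that lost their calls were CELF1, HNRNPA1, HNRNPUL2, HNRNPLP2, RBM6 and SF3B3. The pseudocount changed no call of the members that the naming rule covers, but moved the fold changes of members near 0 by over 1.5 times, and with a pseudocount of 1 the members called with a 2-fold change were 8. At these depths, differences in genes under about 0.1 FPKM rest on a few reads and are not measured with precision.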
